A study of Schizosaccharomyces pombe with 21 samples.

Results

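Fission yeast cells of a strain called HASX were compared with wild-type cells after 2 h in medium without phosphate, gene by gene. The comparison took in the 3 HASX libraries and the 3 wild-type libraries labelled 2 h, which are 6 of the 21 libraries of the study, and 6234 of the 6988 gene identifiers in the deposited tables had enough counts to be tested. HASX (strain BS1453) combines the point mutation asp1-H397A, marked with natMX, with deletions of aps1 (kanMX), siw14 (hygMX) and spx1, which was replaced with ura4MX. The wild type is strain Sp1. Both strains are h- (M mating type) Schizosaccharomyces pombe, and both were grown to log phase in the phosphate-replete form of ePMGT medium before they were moved to ePMGT without phosphate. The other groups, also of 3 libraries each, are HASX after 1 h and 4 h without phosphate and the wild type at 0 h, 1 h and 4 h. HASX in replete medium and a mock transfer were not among the groups, so what HASX cells looked like before the transfer was not analysed here. The annotation names the spx1 gene pqr1, the name used below. HASX is 1 strain with all 4 alleles, and the share of each allele in a difference cannot be told apart. The labels call the 3 libraries of a group biological replicates without naming separate cultures, so p-values measure the spread between these libraries.

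Inositol pyrophosphates are small signalling molecules made by adding a pyrophosphate group to an inositol phosphate ring, and in fungi they report on phosphate status by binding SPX domains. In fission yeast, Asp1 makes the 1-pyrophosphate with its kinase domain and removes it with its pyrophosphatase domain, which the H397A change inactivates. Aps1 is a Nudix hydrolase and Siw14 a cysteine phosphatase that also break down inositol pyrophosphates, and Pqr1 (Spx1) is an SPX-domain protein with a RING finger. The best known targets of this signalling are the phosphate acquisition genes pho1, pho84 and tgp1, which are held down in replete medium by transcription of upstream long non-coding RNAs (lncRNAs) through their promoters.

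The libraries at 2 h held 13623216, 16629614 and 17641029 counts in HASX, against 23680823, 18883118 and 23413179 in the wild type. All 21 libraries ranged between 11235668 and 23680823. Log2 levels of the replicates at 2 h correlated across genes at 0.9939 to 0.9961 in HASX and at 0.9842 to 0.9945 in the wild type. In the HASX group at 4 h the range was 0.9022 to 0.9903, with replicate 3 standing apart. All 21 libraries share 1 estimate of the spread, so that library also enters the tests at 2 h. Levels are given as CPM, a gene's counts relative to the total of its library after scaling with TMM, so every value is relative to the other transcripts of its library, and fewer cells with a transcript and less of it per cell cannot be told apart. The M-cell label was checked against mating-type genes. Other M-cell genes are given further below: mfm2 and mam2 were lower in HASX by larger amounts than those here, and mfm3 did not pass. The gene of the M-factor precursor mfm1 stood at 3.14 ± 0.746 CPM in HASX and 7.64 ± 1.05 CPM in the wild type (SD, n = 3 each), and that of the M-factor exporter mam1 at 45.5 ± 3.74 CPM in HASX and 103 ± 14.4 CPM in the wild type. Of the P-cell genes, the P-factor gene map2 was at 7.96 ± 1.53 CPM in HASX and 4.59 ± 0.951 CPM in the wild type and the M-factor receptor gene map3 at 21.6 ± 1.59 CPM in HASX and 18.5 ± 3.01 CPM in the wild type. Neither of these P-cell genes passed the test of a difference, with log2 fold changes of 0.80 and 0.22 (edgeR adjusted p = 0.124 and 0.228). However, map2 passed as higher in HASX without HASX 4 h replicate 3 (0.84, edgeR adjusted p = 0.000951) and with only the 6 libraries at 2 h (0.81, edgeR adjusted p = 0.00592), and map3 with scaling on protein-coding genes (0.39, edgeR adjusted p = 0.0408). The mean of map3 lay above that of mfm1 in both groups, and that of map2 did in HASX, so these levels alone do not settle the label.

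At 2 h the engineered loci matched the labels. Deleted aps1 had 49, 51 and 54 counts in HASX, against 4576, 3485 and 4247 in the wild type, and deleted siw14 had 30, 9 and 26 counts in HASX, against 4421, 2969 and 4089 in the wild type. The pqr1 locus kept more reads, with 637, 686 and 789 counts in HASX, against 7284, 5494 and 6867 in the wild type. HASX was far below the wild type for all 3 deleted genes, and no replicate overlapped. The point-mutated asp1 stayed transcribed, with 108, 106 and 110.0 CPM in HASX, against 55.03, 66.8 and 74.8 CPM in the wild type. Its groups did not overlap, its log2 fold change was 0.72 ± 0.318 (edgeR adjusted p = 0.0459), and it did not pass in any of the 6 fits that omitted 1 of these libraries. The marker gene ura4, which encodes the last enzyme of UMP synthesis, had 10896, 13708 and 15599 counts in HASX, against 0, 0 and 0 in the wild type. The level in HASX was at least 6290-fold higher, with 3 counts per wild-type library as the floor. The strains therefore also differ at ura4, and its part in any result below was not tested. At 4 h, 1 HASX library went against its label: replicate 3 held 1063 counts of siw14 and 233 of aps1, against 33 and 16 of siw14 and 51 and 54 of aps1 in the other HASX 4 h libraries. Replicate 3 also held 4676 counts of asp1, against 1054 and 752 in the other HASX 4 h libraries. Its counts of pqr1 (1065, against 1258 and 740) and of ura4 (11167, against 8076 and 5963) did not stand apart in this way. What else that library holds was not tested. Counts of called and shared genes at 4 h are given with and without it, as are the 4 h log2 differences of pho1, pho84, tgp1, hsp16 and urg1. Other HASX values at 4 h, such as CPM means and counts of genes called in opposite directions, include it.

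Close to 1 in every 2 genes tested differed at least 2-fold. With an adjusted p under 0.05 and at least a 2-fold change, 1597 genes were higher in HASX (25.6% of the genes tested) and 1484 were lower (23.8%), together 49.4%. Without HASX 4 h replicate 3 in the fit, 1687 were higher and 1462 lower. At the adjusted p alone the counts were 2338 higher (37.5%) and 2452 lower (39.3%), and gene lists are read against these 2 shares. Most list members are protein-coding. Of the 5005 protein-coding genes tested, 1700 were higher and 2253 lower at the adjusted p alone. The share that was higher was thus smaller than over all genes, and the share that was lower was larger. A list of protein-coding genes with a slight excess of falls against all genes may therefore match protein-coding genes as a whole. The 3 HASX values lay above all 3 wild-type values for 2469 genes and below them for 2521. Large changes were more often upward: 430 genes were at least 8-fold higher and 234 at least 8-fold lower, and 122 and 33 genes passed 32-fold. At 8-fold this came mainly from non-coding genes (246 higher, 66 lower), while protein-coding genes were near balance (183 higher, 168 lower). At 4-fold 416 protein-coding genes were higher and 475 lower, and at 32-fold 57 were higher and 15 lower. Protein-coding and non-coding genes divided differently. Among 5005 protein-coding genes 1004 were higher and 1317 lower (median log2 fold change -0.19), and among 1226 non-coding genes 592 were higher and 166 lower (median 1.16). The median over all genes was -0.01, and it moved to 0.16 when libraries were scaled on protein-coding genes alone.

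**Figure D1:**
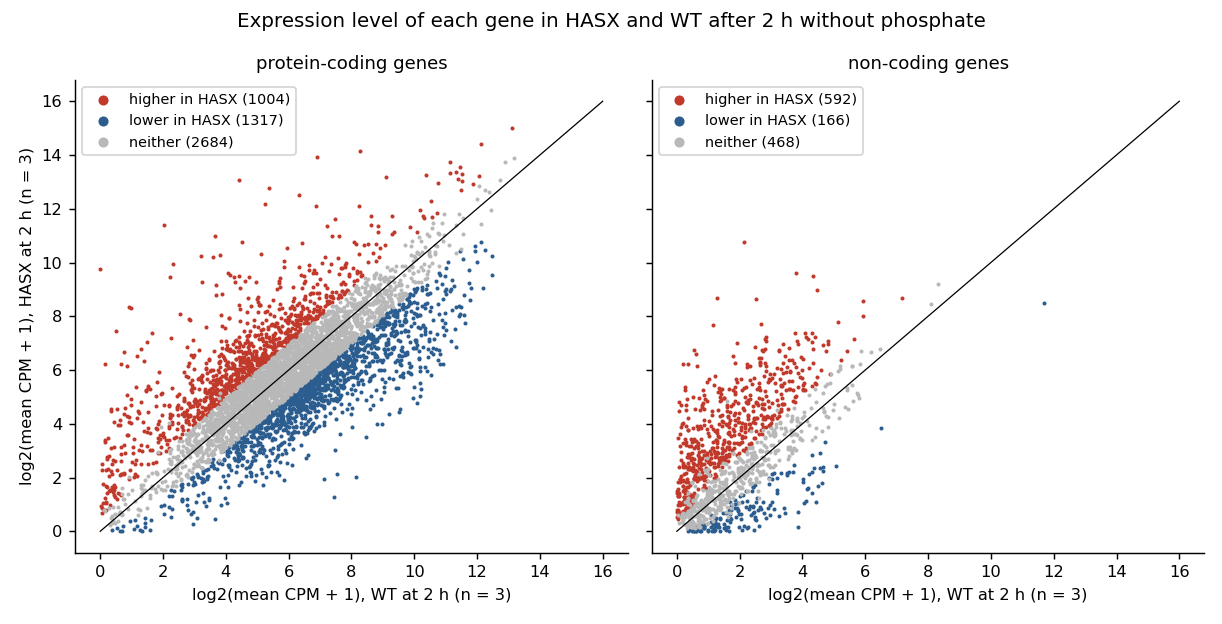
Mean level in HASX at 2 h (vertical axis, log2 of CPM + 1) against the mean level in the wild type at 2 h (horizontal axis, same scale), 1 point per gene, with protein-coding genes on the left and non-coding genes on the right. Red points are called higher in HASX (1004 and 592), blue points lower (1317 and 166), and grey points neither. The non-coding cloud lies mostly above the diagonal, and the protein-coding cloud spreads to both sides of it.

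The phosphate acquisition genes were higher in HASX after 2 h without phosphate, by amounts that differed between the 3 genes. Secreted acid phosphatase pho1 had 32584, 32914 and 33341 CPM in HASX, against 10138, 8688 and 7452 CPM in the wild type. All HASX libraries lay above all wild-type libraries (log2 fold change 1.91, SE 0.139, edgeR adjusted p = 1.76e-10). The glycerophosphodiester transporter tgp1 had 2561, 2762 and 2493 CPM in HASX, against 499, 477 and 384 CPM in the wild type, again without overlap (log2 fold change 2.52, SE 0.145, edgeR adjusted p = 4.46e-12). The phosphate transporter pho84 had 6483, 6792 and 6445 CPM in HASX, against 5596, 4643 and 4409 CPM in the wild type, a small difference without overlap (log2 fold change 0.43, SE 0.128, edgeR adjusted p = 0.00498). Together the 3 genes took 4.16%, 4.04% and 4.05% of counts in HASX, against 1.46%, 1.40% and 1.38% in the wild type.

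Of the 3 lncRNAs transcribed upstream of these genes, 2 rose and 0 fell. The lncRNA nc-pho1, which runs through the pho1 promoter, had 4.33, 4.17 and 4.74 CPM in HASX, against 1.36, 1.57 and 1.45 CPM in the wild type (log2 fold change 1.59, SE 0.244, edgeR adjusted p = 6.94e-06). The lncRNA prt2 upstream of pho84 had 24.6, 23.4 and 26.2 CPM in HASX, against 9.69, 7.05 and 8.03 CPM in the wild type (log2 fold change 1.58, SE 0.156, edgeR adjusted p = 1.62e-08). Both were higher in all 3 HASX libraries, while nc-tgp1 did not pass the test (log2 fold change 0.12 ± 0.257, edgeR adjusted p = 0.684). Both nc-pho1 and prt2 overlap their target gene in the annotation, so reads of the gene and of its lncRNA may be mixed in these counts. The strand setting of the counting is also not given. Of 8 other phosphate genes 4 rose and 3 fell. The vacuolar polyphosphate polymerase subunit vtc4 rose (0.83) and its partner vtc2 fell (-0.99), the transporter pho842 rose (0.88), and the exopolyphosphatase ppx1 (-1.30) and the transcription factor pho7 (-0.61), which activates pho1 and tgp1, fell. Without wild-type replicate 3, 2 of the 8 rose. All 4 genes on the list of inositol phosphate kinases and phospholipase C passed: plc1, which releases inositol trisphosphate, rose (1.55), and the kinase genes arg82 (-1.22), ipk1 (-0.495) and kcs1 (-0.49) fell.

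Among protein-coding genes with at least 10 CPM in the higher group and no overlap between replicates, the largest rises, beside ura4, started with cum1 (9.77) and SPAC2H10.04 (9.35). SPAC2H10.04 had 79.2, 89.3 and 53.1 CPM in HASX, against 0.047, 0.313 and 0 CPM in the wild type. Its wild-type mean of 0.12 CPM lay under the floor of 3 counts per library (0.137 CPM), so the size of its rise is uncertain. The gene ddr48 had 8049.9, 8911 and 8907 CPM in HASX, against 16.04, 21.5 and 23.1 CPM in the wild type (log2 fold change 8.74, SE 0.214, edgeR adjusted p = 5.87e-17), and hry1, which encodes a cation-binding HHE domain protein, had 169, 192 and 163 CPM in HASX, against 0.235, 0.626 and 0.419 CPM in the wild type (log2 fold change 8.67, SE 0.313, edgeR adjusted p = 4.68e-15). In both genes every HASX library lay far above every wild-type library. They were followed by SPAC4F10.17 (8.42), the bZIP transcription factor gene atf21 (8.33), prl65 (7.96), the dehydrogenase gene SPCC1739.08c (7.63), zym1 (7.43), wwm3 (7.42), SPCC569.09 (7.18), SPAC3G6.07 (7.17), hsp16 (7.02) and SPBC725.03 (6.97), a gene of the pyridoxamine phosphate oxidase family. By the same criteria the largest falls, beside siw14 and aps1, were led by the M-factor precursor gene mfm2 (-6.49). Of the 12 that came next, 9 encode ribosomal proteins, from rpl3002 (-5.60), rps1402, rpl35A01, rpl1002, rpp101, rpl1502, rpl1202 and rps1502 to rps2601 (-4.89). The other 3 were the adenine phosphoribosyltransferase gene apt1 (-5.07), the sorbose reductase gene SPAC8E11.10 (-4.92) and the fluoride channel gene fex1 (-4.90). How the authors' counting divided reads between near-identical copies, such as ribosomal protein paralogs, is not given, so the split within such a pair is uncertain.

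**Figure D2:**
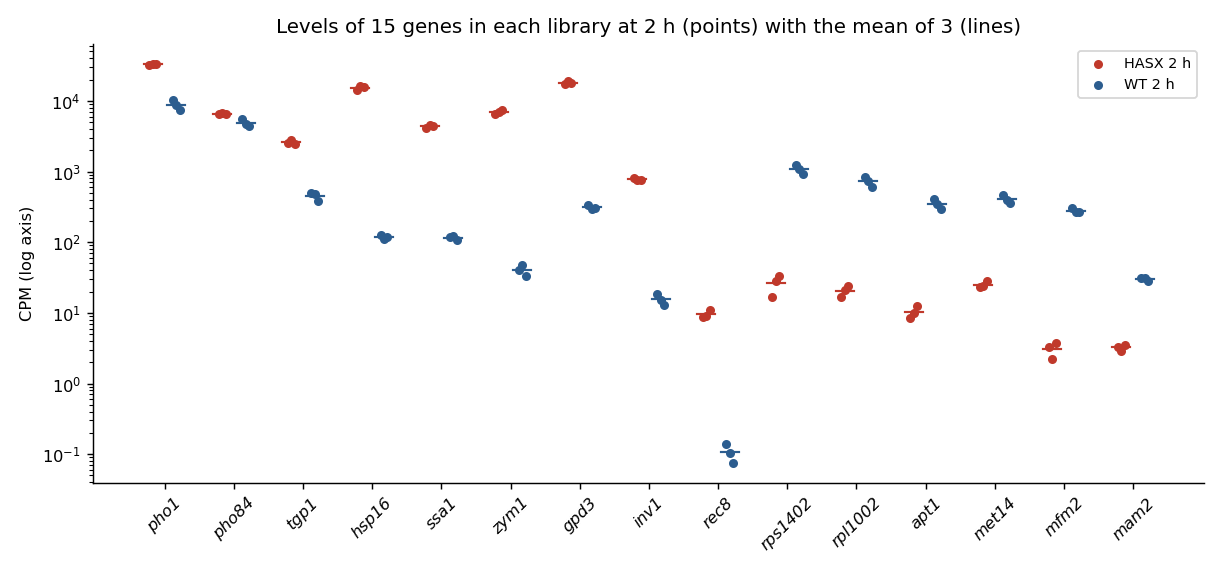
Levels of 15 genes at 2 h in each of the 3 HASX and 3 wild-type libraries (CPM, log axis); points are libraries and lines the group means. The genes pho1, pho84, tgp1, hsp16, ssa1, zym1, gpd3, inv1 and rec8 are higher in every HASX library, and rps1402, rpl1002, apt1, met14, mfm2 and mam2 are lower in every HASX library.

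Stress genes were among the most strongly raised, but not as a whole. On the list of the core environmental stress response (genes induced by many stresses through the Sty1 kinase), 37 of 55 genes tested rose, 6 fell and 12 did not pass (median log2 fold change 0.86). Their summed share was 9.28%, 9.61% and 9.47% of counts in HASX, against 2.51%, 2.55% and 2.33% in the wild type. The metallothionein gene zym1 had 6569, 6927 and 7356 CPM in HASX, against 40.9, 46.98 and 33.5 CPM in the wild type (log2 fold change 7.43, SE 0.163, edgeR adjusted p = 2.19e-17). The small heat shock protein gene hsp16 had 14194, 16492 and 15544 CPM in HASX, against 127, 112 and 117 CPM in the wild type (log2 fold change 7.02, SE 0.246, edgeR adjusted p = 3.2e-15). In both genes the HASX libraries lay far above the wild type, with no overlap. Other large rises were mug143 (5.15) and the zinc finger transcription factor gene rsv1 (4.88), while the glutaredoxin gene grx2 fell (-1.93). The gene of the bZIP factor Atf1, which acts below Sty1, had a log2 fold change of -0.21 and did not pass (edgeR adjusted p = 0.196).

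Chaperone genes split in both directions. On that list, 15 of 38 genes tested rose, 22 fell and 1 did not pass (median log2 fold change -0.70), and the list took 2.66%, 2.85% and 2.76% of counts in HASX, against 2.56%, 2.61% and 2.502% in the wild type. Of these shares, hsp16 alone made up 1.42%, 1.57% and 1.49% in HASX, against 0.0114%, 0.0113% and 0.0131% in the wild type. The rest of the list thus took a smaller share in HASX. Both hsp16 and hsp104 are also on the core stress list. The Hsp70 gene ssa1 had 4110.0, 4562 and 4354 CPM in HASX, against 119, 122.8 and 107 CPM in the wild type (log2 fold change 5.22, SE 0.207, edgeR adjusted p = 1.75e-14). Its paralog ssa2 had 450.0, 555 and 570.1 CPM in HASX, against 5212, 4854 and 4013 CPM in the wild type (log2 fold change -3.16, SE 0.146, edgeR adjusted p = 1.61e-13). The groups did not overlap in either gene, and the members of the pair moved in opposite directions. The disaggregase gene hsp104 (2.84), the heat shock factor gene hsf1 (1.21), hsp3105 (6.20) and hsp3101 (4.79), both of the DJ-1 family, also rose. The mitochondrial chaperonin gene mcp60 (-3.55), the J-domain co-chaperone gene mas5 (-3.18) and the Hsp90 gene hsp90 (-2.95) fell. Genes of folding in the endoplasmic reticulum were mostly lower: 2 of 15 genes tested rose, 13 fell and 0 did not pass (median log2 fold change -1.07). Examples are the luminal Hsp70 gene bip1 (-2.16), its exchange factor gene sil1 (-2.05), and the disulfide isomerase genes pdi2 (-2.13) and pdi1 (-1.57).

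Genes of sugar use took up a larger part of the HASX libraries. On the list of glycolysis and fermentation, 14 of 20 genes tested rose, 3 fell and 3 did not pass (median log2 fold change 0.81), and their share was 12.9%, 13.6% and 14.4% of counts in HASX, against 5.77%, 5.83% and 5.60% in the wild type. The glyceraldehyde-3-phosphate dehydrogenase gene gpd3 had 17219, 19123 and 18136 CPM in HASX, against 332, 297 and 303 CPM in the wild type (log2 fold change 5.87, SE 0.186, edgeR adjusted p = 8.45e-16). The phosphoglycerate kinase gene pgk1 had 19328, 21349 and 23961 CPM in HASX, against 4834, 4575 and 3869.9 CPM in the wild type (log2 fold change 2.28, SE 0.133, edgeR adjusted p = 5.81e-12). HASX stood above the wild type in every library of both genes, and tdh1, the other glyceraldehyde-3-phosphate dehydrogenase gene, rose too (1.79). The enolase gene eno102 (5.20) and the pyruvate decarboxylase gene pdc201 (4.03) rose, and the alcohol dehydrogenase gene adh4 fell (-2.71).

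Genes held down by glucose were raised as well: on the list of hexose transport and glucose-repressed genes, 18 of 27 genes tested rose, 5 fell and 4 did not pass (median log2 fold change 1.25). The invertase gene inv1 had 813, 771 and 768 CPM in HASX, against 18.7, 15.1 and 13.1 CPM in the wild type, without overlap (log2 fold change 5.65, SE 0.167, edgeR adjusted p = 3.79e-16). The glycerol dehydrogenase gene gld1 (5.59), the maltase gene agl1 (5.29) and the gluconeogenic fructose-1,6-bisphosphatase gene fbp1 (4.65) followed. Among hexose transporter genes ght1 rose (3.03), while ght5, the main high-affinity glucose transporter, and ght8 fell (-2.499 and -1.48). Mitochondrial energy genes moved less. On the TCA cycle list, 9 of 20 genes tested rose, 5 fell and 6 did not pass (median log2 fold change 0.24), from the malate dehydrogenase gene mdh1 (1.90) and the succinate-CoA ligase gene lsc2 (1.06) to the citrate synthase gene cit1 (-1.26) and the pyruvate dehydrogenase gene pdb1 (-1.45). On the list of the respiratory chain and ATP synthase, 21 of 39 genes tested rose, 6 fell and 12 did not pass (median log2 fold change 0.39), and 3 fell without wild-type replicate 1 or with scaling on protein-coding genes. The largest changes there were qcr6 of complex III (1.79), the ATP synthase assembly genes atp12 (1.61) and atp10 (1.42), and cox6 of complex IV (-1.43).

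**Figure D3:**
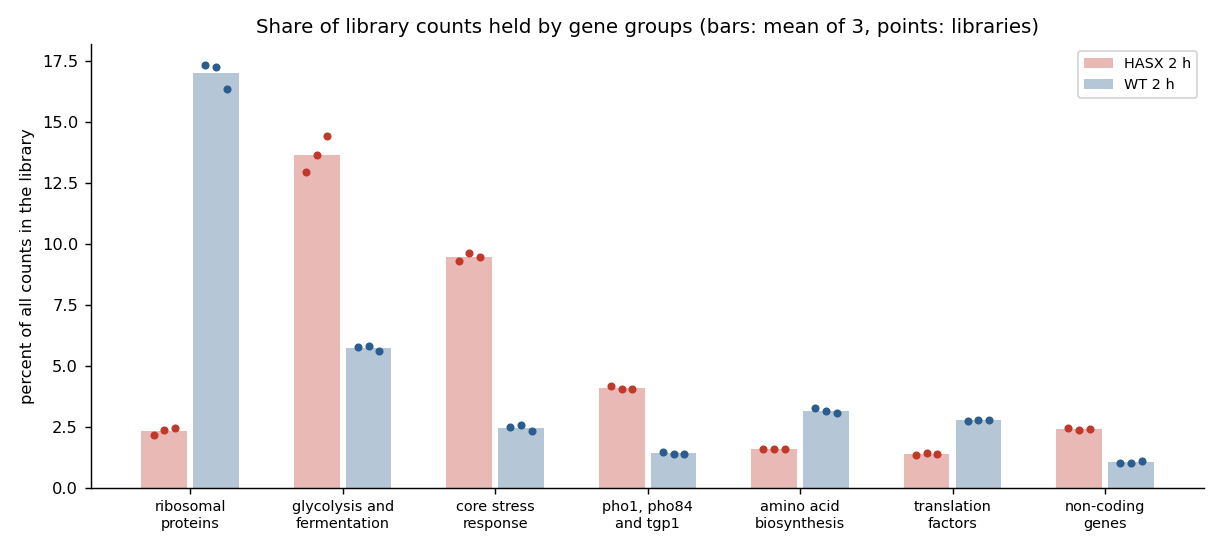
Share of each library's counts (percent) taken by 7 groups of genes at 2 h; bars are means of 3 libraries, drawn from 0, and points are single libraries. Cytosolic ribosomal protein genes took 2.17% to 2.45% in HASX and 16.4% to 17.3% in the wild type, while glycolysis and fermentation genes took 12.9% to 14.4% in HASX and 5.60% to 5.83% in the wild type.

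Every cytosolic ribosomal protein gene tested was lower in HASX. All 142 fell, with a median log2 fold change of -3.21 and a range between -5.60 (rpl3002) and -0.35 (ubi2, a ubiquitin and ribosomal protein fusion). Together they took 2.17%, 2.39% and 2.45% of counts in HASX, against 17.3%, 17.3% and 16.4% in the wild type. The small subunit gene rps1402 had 16.8, 27.9 and 33.6 CPM in HASX, against 1239.8, 1100.1 and 931 CPM in the wild type (log2 fold change -5.38, SE 0.218, edgeR adjusted p = 2.41e-14). The large subunit gene rpl1002 had 16.96, 21.2 and 23.9 CPM in HASX, against 838, 725 and 614 CPM in the wild type (log2 fold change -5.13, SE 0.161, edgeR adjusted p = 7.54e-16). In both, the highest HASX value was far under the lowest wild-type value. When the libraries were scaled without these genes, the counts of called genes and of list members stayed within 1.5 times of those given here.

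The machinery that builds and uses ribosomes fell less uniformly, and the list of RNA polymerase I and III showed no fall as a whole. Among ribosome biogenesis factors, 18 of 111 genes tested rose, 74 fell and 19 did not pass (median log2 fold change -0.76). The largest falls were rrs1 (-3.91) and sda1 (-3.04), both of the large subunit pathway, the box H/ACA gene gar1 (-2.98), and utp4 of the small subunit processome (-2.93). For RNA polymerase I and III, 9 of 34 genes tested rose, 14 fell and 11 did not pass (median log2 fold change -0.03), and the number that rose was 14 with scaling on protein-coding genes. The polymerase III subunit genes rpc11 (-3.01) and rpc25 (-2.67), and rpc19 (-2.80) and rpc40 (-2.02), whose products both enzymes share, had the largest changes of that list. Its highest value was 1.93. Translation factor genes were lower on the whole: 1 of 39 genes tested rose, 30 fell and 8 did not pass (median log2 fold change -1.06), and 2 rose without wild-type replicate 3 or with scaling on protein-coding genes. They included tif512, one of the eIF5A genes (-2.87), the eIF2 gene tif213 (-2.40), the eIF1A gene tif11 (-2.31) and the eIF3 gene tif308 (-2.23). Mitochondrial ribosomal protein genes went both ways, since 14 of 58 genes tested rose, 32 fell and 12 did not pass (median log2 fold change -0.53). Here mrpl27 rose (2.99), while mrp17 (-2.88), rsm10 (-2.76) and mrpl20 (-2.52) were the next by size. Without wild-type replicate 2, the number that rose on this list was 9.

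Genes that make amino acids and nucleotides were lower in HASX. On the amino acid list, 3 of 57 genes tested rose, 49 fell and 5 did not pass (median log2 fold change -1.12), and its share was 1.59%, 1.58% and 1.57% of counts in HASX, against 3.25%, 3.13% and 3.07% in the wild type. The gene with the largest fall was gly1 (threonine aldolase), with 47.95, 49.9 and 54.9 CPM in HASX, against 681, 578 and 509 CPM in the wild type (log2 fold change -3.53, SE 0.147, edgeR adjusted p = 3.35e-14). It was followed by lys7 (-3.48), pro3 (-3.01) and his3 (-2.87), genes of lysine, proline and histidine synthesis. For purine synthesis, 0 of 13 genes tested rose, 11 fell and 2 did not pass (median log2 fold change -1.04), and 1 or 2 rose under 5 other settings, among them the fits without wild-type replicate 3 and without HASX 4 h replicate 3. The list was led by ade4, the first enzyme of the pathway (-2.46), ade7 (-1.87), ade1 (-1.74) and the ribose-phosphate pyrophosphokinase gene prs5 (-1.56). All 5 genes on the list of pyrimidine synthesis fell (median -2.22): ura5 (-2.74), ura3 (-2.55), ura6 (-2.22) and ura2 (-1.23) led it. This is the pathway in which ura4 itself acts, and ura4 was at 0 counts in the wild type and present in HASX; the part of that difference in these falls was not tested.

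Salvage genes diverged: 5 of 12 genes tested rose, 6 fell and 1 did not pass (median log2 fold change -0.07). The adenine salvage gene apt1 had 8.44, 9.92 and 12.6 CPM in HASX, against 408, 342 and 295 CPM in the wild type (log2 fold change -5.07, SE 0.180, edgeR adjusted p = 3.77e-15). The cytidine deaminase gene cdd1 (2.67), the uracil-regulated gene urg1 (2.09) and the uracil phosphoribosyltransferase gene uck2 (1.76) rose. For sulfate assimilation and methionine, 4 of 21 genes tested rose, 12 fell and 5 did not pass (median log2 fold change -0.54). The adenylylsulfate kinase gene met14 had 23.5, 23.6 and 28.2 CPM in HASX, against 472, 400.0 and 363 CPM in the wild type, without overlap (log2 fold change -4.03, SE 0.129, edgeR adjusted p = 9.73e-16). The S-adenosylmethionine synthetase gene sam1 (-2.77), the methylenetetrahydrofolate reductase gene met9 (-2.74) and the sulfite reductase gene sir1 (-2.25) also fell. Without wild-type replicate 3, 2 genes of this list rose in place of 4.

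Membrane, wall and division genes were lower more often than higher. On the sterol list, 4 of 26 genes tested rose, 19 fell and 3 did not pass (median log2 fold change -0.61). These include erg6 (-2.91), erg25 (-1.88), erg4 (-1.83) and hmg1, the HMG-CoA reductase gene (-1.99). For phospholipids and inositol, 5 of 24 genes tested rose, 16 fell and 3 did not pass (median log2 fold change -0.88). The phosphatidylethanolamine methyltransferase gene cho2 had 49.9, 50.1 and 56.8 CPM in HASX, against 899, 779 and 708 CPM in the wild type (log2 fold change -3.93, SE 0.159, edgeR adjusted p = 2.36e-14). The phospholipase B gene plb5 had 190.0, 206 and 200.2 CPM in HASX, against 15.1, 13.6 and 12.3 CPM in the wild type (log2 fold change 3.86, SE 0.111, edgeR adjusted p = 2.58e-16). The gene cho2 was lower in every HASX library and plb5 higher in every one, and pis1, which makes phosphatidylinositol, fell (-2.07), as did the phosphatidylserine decarboxylase gene psd2 (-2.04).

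On the cell wall list, 8 of 35 genes tested rose, 23 fell and 4 did not pass (median log2 fold change -0.67). The septum glucanase gene eng1 had 59.04, 57.2 and 53.8 CPM in HASX, against 1079, 898 and 887 CPM in the wild type (log2 fold change -4.07, SE 0.157, edgeR adjusted p = 1.18e-14). The glucanosyltransferase gene gas4 (-3.15) and the cell surface gene ecm33 (-2.81) fell too, and the alpha-glucan synthase gene mok13 rose (2.495). Among genes of mitosis and septation, 7 of 43 genes tested rose, 28 fell and 8 did not pass (median log2 fold change -0.62), and 11 rose with scaling on protein-coding genes. Here slp1, which activates the anaphase-promoting complex (-3.29), and the anillin-related mid2 (-2.76) fell, and sid1, a kinase gene of the septation network, rose (2.55). G1/S genes were divided: 11 of 33 genes tested rose, 15 fell and 7 did not pass (median log2 fold change 0.002). The checkpoint kinase gene mik1 (-3.74), the PCNA gene pcn1 (-3.16) and the ribonucleotide reductase gene cdc22 (-2.64) fell, and res2, a subunit gene of the MBF transcription factor, rose (2.38). Of 10 histone genes 3 rose and 6 fell (median -0.48), with hhf1 (-1.63), the H2A.Z gene pht1 (-1.33), hhf3 (-1.11) and hht3 (1.11) the largest changes; the histone H3 and H4 genes are near-identical copies. Histone genes took 1.26%, 1.30% and 1.22% of counts in HASX, against 1.25%, 1.24% and 1.23% in the wild type.

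**Figure D4:**
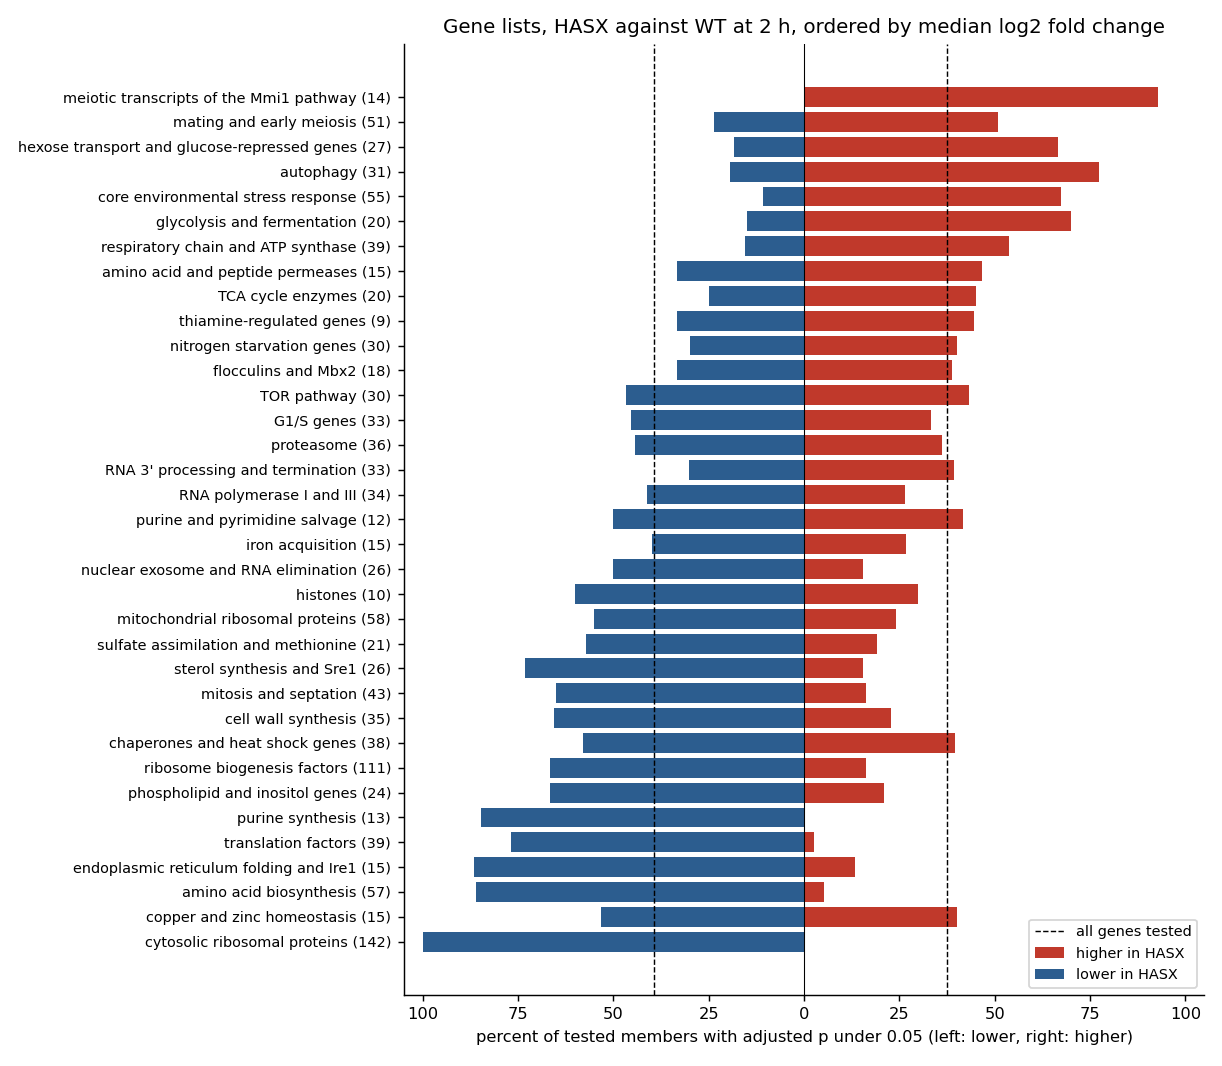
Percent of the tested members of 35 gene lists that passed an adjusted p under 0.05 at 2 h, higher in HASX to the right and lower to the left, ordered by the median log2 fold change of the list. Dashed lines mark the same shares over all genes tested (37.5% higher and 39.3% lower). Over protein-coding genes alone the share that was higher was smaller and the share that was lower was larger. Meiotic transcripts of the Mmi1 pathway stand at one end, with 13 of 14 higher, and cytosolic ribosomal proteins at the other, with 142 of 142 lower.

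Meiotic transcripts were present at raised levels in HASX. Mmi1 is an RNA-binding protein that sends meiotic transcripts to degradation in dividing cells, and on the list of its targets and the related RNA sme2, 13 of 14 genes tested rose, 0 fell and 1 did not pass (median log2 fold change 3.60). The meiotic cohesin gene rec8 had 8.81, 9.03 and 11.1 CPM in HASX, against 0.141, 0.104 and 0.0761 CPM in the wild type (log2 fold change 6.43, SE 0.369, edgeR adjusted p = 4.59e-12). Its wild-type values lay near or under the floor of 3 counts per library (0.137 CPM), so the size of its rise is uncertain. The non-coding RNA sme2 (meiRNA), which captures Mmi1, had 221, 178 and 218 CPM in HASX, against 1.18, 1.15 and 1.33 CPM in the wild type (log2 fold change 7.38, SE 0.259, edgeR adjusted p = 3.2e-15). HASX was higher in every library for both. The genes mug10 (4.90) and num1 (4.47) followed, and crs1 did not pass (log2 fold change 0.49, edgeR adjusted p = 0.35). On the list of mating and early meiosis, 26 of 51 genes tested rose, 12 fell and 13 did not pass (median log2 fold change 1.42), with atf21 (8.33), rec8 and the recombination gene rec7 (4.71) among the rises. This list shares members with that of the Mmi1 pathway, such as rec8, num1 and spo5.

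M-cell mating genes went the other way. The M-factor precursor gene mfm2 had 3.30, 2.21 and 3.79 CPM in HASX, against 299.9, 269 and 269 CPM in the wild type (log2 fold change -6.49, SE 0.315, edgeR adjusted p = 3.58e-13). The P-factor receptor gene mam2 had 3.30, 2.91 and 3.55 CPM in HASX, against 31.6, 30.8 and 27.8 CPM in the wild type (log2 fold change -3.21, SE 0.198, edgeR adjusted p = 1.39e-11). Both were lower in every HASX library, as were mfm1 (-1.28) and mam1 (-1.18), while mfm3 did not pass (0.15, edgeR adjusted p = 0.719). On the P-cell list, 0 of 5 genes tested rose and 1 fell, the protease gene sxa1 (-0.37). The call of sxa1 was lost without HASX replicate 3, without wild-type replicate 1 and with scaling on protein-coding genes. This list also holds mam3, an M-cell gene, so its counts are not of P-cell genes alone. The settings under which map2 or map3 rose are given above. Among late genes set as signs of spores, spo5 (4.11), isp3 (3.55) and meu1 (1.997) rose and mde2 did not pass (1.74, edgeR adjusted p = 0.114). Both spo5 and meu1 are also on the list of the Mmi1 pathway above, so their rises are not a separate observation. The spore wall gene isp3 had 296, 318 and 249 CPM in HASX, against 28.6, 22.9 and 22.3 CPM in the wild type, and spo5 had 15.3, 16.9 and 14.7 CPM in HASX, against 0.847, 0.992 and 0.875 CPM in the wild type; the part of any spores in the cultures was not tested.

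Autophagy genes rose in HASX while genes of TOR signalling and nitrogen starvation were divided. On the autophagy list, 24 of 31 genes tested rose, 6 fell and 1 did not pass (median log2 fold change 1.17). The kinase gene atg1, which starts autophagy, had 988, 979 and 897 CPM in HASX, against 119, 96.4 and 83.6 CPM in the wild type (log2 fold change 3.26, SE 0.131, edgeR adjusted p = 2.02e-14). The mitophagy receptor gene atg43 (3.09), atg101 of the Atg1 complex (2.60) and the sorting nexin gene atg20 (2.55) rose too, and atg16 fell (-1.55). For the TOR pathway, 13 of 30 genes tested rose, 14 fell and 3 did not pass (median log2 fold change 0.11). The largest changes were stb3 (3.07), the Rag GTPase gene gtr1 (-2.99), tap42 (2.75), whose product binds type 2A phosphatases, and the S6 kinase gene psk1 (1.53). On the nitrogen starvation list, 12 of 30 genes tested rose, 9 fell and 9 did not pass (median log2 fold change 0.21), and 19 rose with scaling on protein-coding genes. Here inv1 and isp3 rose, as did the vacuolar protease gene isp6 (2.27), and the amino acid permease gene aat1 fell (-3.67). Among permeases, 7 of 15 genes tested rose, 5 fell and 3 did not pass (median log2 fold change 0.30), with avt3 (-2.31), meu22 (2.12) and pgt1 (-2.05) next by size. The lifespan genes of the Ecl family moved apart: ecl3 had 989, 1039 and 1129.5 CPM in HASX, against 71.3, 46.4 and 51.1 CPM in the wild type (log2 fold change 4.23, SE 0.162, edgeR adjusted p = 1.11e-14), ecl2 fell (-1.06), and ecl1 fell (-0.44), a call lost in 4 of the 6 fits without 1 library and with scaling on protein-coding genes.

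Genes of metals and thiamine showed single large changes. On the copper and zinc list, 6 of 15 genes tested rose, 8 fell and 1 did not pass (median log2 fold change -1.31). The zinc transporter gene zrt1 had 54.8, 58.7 and 61.2 CPM in HASX, against 964, 742 and 1067 CPM in the wild type, with HASX lower in every library (log2 fold change -3.99, SE 0.264, edgeR adjusted p = 4.02e-11). The Golgi zinc transporter gene cis4 also fell (-2.68), while zym1, whose values are given above, rose. For iron acquisition, 4 of 15 genes tested rose, 6 fell and 5 did not pass (median log2 fold change -0.29), and 3 fell without wild-type replicate 3. That library decided the largest value of the list: the siderophore transporter gene str1 had 24.9, 19.5 and 19.95 CPM in HASX, against 32.2, 24.2 and 284 CPM in the wild type. These groups overlapped, and the log2 fold change of -2.41 became -0.40 (edgeR adjusted p = 0.532) without the third wild-type library. The heme uptake gene shu1 (2.01) and the ferrichrome synthetase gene sib1 (1.31) rose and the siderophore synthesis gene sib3 fell (-1.81). Among 9 thiamine-regulated genes 4 rose and 3 fell (median 0.23). The thiamine pyrimidine synthesis gene nmt1 had 55.00, 89.3 and 64.1 CPM in HASX, against 1.08, 0.731 and 0.609 CPM in the wild type (log2 fold change 6.43, SE 0.243, edgeR adjusted p = 8.56e-15). The genes thi2 (1.56), thi1 (-1.25) and the acid phosphatase gene pho4 (-1.004) moved by smaller amounts.

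Genes of the proteasome, RNA 3' processing and flocculation moved in both directions, and those of the nuclear exosome were lower more often than higher. For the proteasome, 13 of 36 genes tested rose, 16 fell and 7 did not pass (median log2 fold change -0.01), with rpn12 (-1.69), scl1 (-1.58), pts1 (-1.44) and pre4 (1.31) the largest changes. For RNA 3' processing and termination, 13 of 33 genes tested rose, 10 fell and 10 did not pass (median log2 fold change -0.01). The phosphatase gene dis2 (-2.10) and the kinase gene lsk1 (-1.89), whose products act on the RNA polymerase II machinery, fell, and the elongation factor gene prf1 (2.01) and the termination factor gene rhn1 (1.49) rose. For the nuclear exosome and RNA elimination, 4 of 26 genes tested rose, 13 fell and 9 did not pass (median log2 fold change -0.31); 7 rose without wild-type replicate 3 or with scaling on protein-coding genes. The exosome subunit genes rrp4 (-2.25) and rrp43 (-2.22) and the exosome cofactor gene cti1 (-2.001) fell, and the meiotic gene mug28 rose (2.74). Among flocculins and their regulator Mbx2, 7 of 18 genes tested rose, 6 fell and 5 did not pass (median log2 fold change 0.16), with mbx2 (2.14), pfl7 (-1.40), pfl5 (1.39) and pfl2 (-1.27) leading.

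Non-coding RNAs made up 2.44%, 2.38% and 2.40% of counts in HASX, against 1.01%, 1.01% and 1.10% in the wild type. Of 1118 lncRNA genes tested 583 were higher and 175 lower at the adjusted p alone. Named non-coding RNAs below are those with the largest changes among RNAs with at least 10 CPM in the higher group. The non-coding RNA SPNCRNA.639 had 69.9, 78.6 and 74.4 CPM in HASX, against 0.0941, 0.209 and 0.114 CPM in the wild type (log2 fold change 9.03, SE 0.451, edgeR adjusted p = 5.55e-13). Its wild-type values lay near the floor of 3 counts per library (0.137 CPM), so the size of this rise is uncertain. Others with large rises were SPNCRNA.892 (8.99), SPNCRNA.1072 (8.71), fbp1-ot2 (8.66) and SPNCRNA.1364 (8.15). The coding genes beside these RNAs did not share a direction. SPNCRNA.639, SPNCRNA.892 and SPNCRNA.1072 overlap mcp60, tif211 and SPAP8A3.07c, which had log2 fold changes of -3.55, -1.66 and -2.03. The coding gene nearest to fbp1-ot2 is wwm3 (7.42), and SPNCRNA.1364 overlaps SPBC1685.04 (0.86) and htr11 (1.81). The largest fall among RNAs at that level was SPNCRNA.1461 with 0.147, 0.190 and 0 CPM in HASX, against 13.7, 14.1 and 12.8 CPM in the wild type (log2 fold change -6.88, SE 0.849, edgeR adjusted p = 4.14e-07), whose overlapping gene pfd1 had a log2 fold change of -2.86. The HASX values of SPNCRNA.1461 lay near the floor of 3 counts per library, so the size of its fall is uncertain. SPNCRNA.1296 (-4.38), SPNCRNA.863 (-4.20), meu19 (-3.83) and SPNCRNA.624 (-3.77) fell as well. The non-coding RNA prl53 (SPNCRNA.53), chosen after its values were seen, had 305, 362 and 399 CPM in HASX, against 3864, 3127 and 3013 CPM in the wild type, so all HASX libraries were lower (log2 fold change -3.23, SE 0.163, edgeR adjusted p = 6.5e-13).

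Of 285 non-coding RNAs that overlapped a coding gene higher in HASX, 145 (50.88%) were called higher at 2-fold (median log2 fold change 1.38), and of 580 that overlapped only other coding genes 299 (51.55%) were (median 1.37). For non-coding RNAs that overlapped none, the counts were 38 of 86 (44.19%, median 1.12) where the nearest coding gene was higher and 103 of 261 (39.46%, median 0.27) where it was not. These differences were not tested. Of 40 snoRNA genes 14 rose and 15 fell at the adjusted p alone. Because the strand setting of the counting is not given, reads from both strands of an overlapping pair cannot be told apart.

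The genotypes were compared in the same way at 1 h and 4 h, in libraries other than those at 2 h. At 1 h, 1472 genes were higher in HASX (23.6%) and 1371 lower (22%), and at 4 h 1541 were higher (24.7%) and 1161 lower (18.6%). Without HASX 4 h replicate 3, the library that stood apart, 1345 were higher and 1183 lower at 4 h. Of the genes higher at 2 h, 1218 were also called higher at 1 h (76.27% of the 2 h list and 82.74% of the 1 h list), and 1188 at 4 h (74.39% and 77.09%). Of the genes lower at 2 h, 1090 were also lower at 1 h (73.45% and 79.5%), and 996 at 4 h (67.12% and 85.79%). Without HASX 4 h replicate 3, 1162 of the higher genes (72.76% and 86.39%) and 980 of the lower genes (66.04% and 82.84%) were shared with 4 h. Only 1 gene lower at 2 h was called higher at 1 h and 3 at 4 h, and 0 genes higher at 2 h were called lower at either time.

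Tested directly, the genotype difference shifted upward between 1 h and 2 h for 305 genes (4.89%) and downward for 260 (4.17%). Between 2 h and 4 h it shifted upward for 422 (6.77%) and downward for 345 (5.53%), or 324 and 475 without HASX 4 h replicate 3. Leaving out 1 wild-type library at 2 h changed the first of these counts most: 177 without replicate 1 and 580 without replicate 3. The level of hsp16 was 3139 ± 659 CPM at 1 h, 15409.8 ± 1155 at 2 h and 18119 ± 1716 at 4 h in HASX, against 121 ± 48.4 at 0 h, 154 ± 4.04 at 1 h, 119 ± 7.72 at 2 h and 286 ± 18.2 at 4 h in the wild type (SD, n = 3 each). Its genotype difference was larger at 2 h by 2.67 on the log2 scale (SE 0.273, edgeR adjusted p = 1.54e-06). The others with the largest upward shifts were SPAC869.09, of the Con-6 family (3.11), SPAC4F10.17 (2.83), SPBC530.07c, of the TENA/THI family (2.49), and hry1 (2.43).

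The genotype difference of uracil-regulated genes shifted downward over the same hour. The level of urg1 was 32236 ± 3529 CPM at 1 h, 11993 ± 324 at 2 h and 13289.9 ± 1816 at 4 h in HASX, against 7251 ± 1383 at 0 h, 417 ± 100.02 at 1 h, 2823 ± 374 at 2 h and 5330.3 ± 166 at 4 h in the wild type. HASX was thus above the wild type at both times, and the difference shrank by 4.19 ± 0.241 on the log2 scale (edgeR adjusted p = 1.92e-09). The shifts of urg2 (-3.82), uck2 (-3.27), urg3 (-3.27) and the esterase gene SPAPB1A11.02 (-4.11) were also downward. At 4 h the log2 difference of urg1 was 1.39 without HASX 4 h replicate 3 and 1.32 with it, and that of hsp16 was 6.09 and 5.98. At 2 h itself urg3 did not pass (log2 fold change 0.15, edgeR adjusted p = 0.315). The urg genes respond to uracil, and ura4 also differs between the strains at every time; its part here was not tested.

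All 3 phosphate acquisition genes differed less between the genotypes at 2 h than at 1 h. The level of pho1 was 28112 ± 4113 CPM at 1 h, 32946 ± 379 at 2 h and 46824 ± 4544 at 4 h in HASX, against 1219.8 ± 148 at 0 h, 4944 ± 398 at 1 h, 8759 ± 1345 at 2 h and 18459.6 ± 724 at 4 h in the wild type. The genotype difference of pho1 at 2 h (1.91) was smaller than that at 1 h (2.51) by 0.60 ± 0.191 (edgeR adjusted p = 0.0253), and at 4 h it was 1.34. The level of tgp1 was 4068 ± 570.2 CPM at 1 h, 2605 ± 139.7 at 2 h and 3950.2 ± 647 at 4 h in HASX, against 53.8 ± 8.78 at 0 h, 257 ± 22.2 at 1 h, 454 ± 61.04 at 2 h and 1004 ± 23.8 at 4 h in the wild type. Its log2 differences were 3.98 at 1 h, 2.52 at 2 h and 1.98 at 4 h, and the step between 1 h and 2 h was -1.46 ± 0.195 (edgeR adjusted p = 2.94e-05). For pho84 they were 1.06 at 1 h, 0.43 at 2 h and 0.85 at 4 h, with a step of -0.63 ± 0.181 between 1 h and 2 h (edgeR adjusted p = 0.014). That between 2 h and 4 h, with HASX 4 h replicate 3 included, was 0.42 and did not pass (edgeR adjusted p = 0.0838). Without HASX 4 h replicate 3 the values at 4 h were 1.44 for pho1, 2.11 for tgp1 and 0.97 for pho84.

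**Figure D5:**
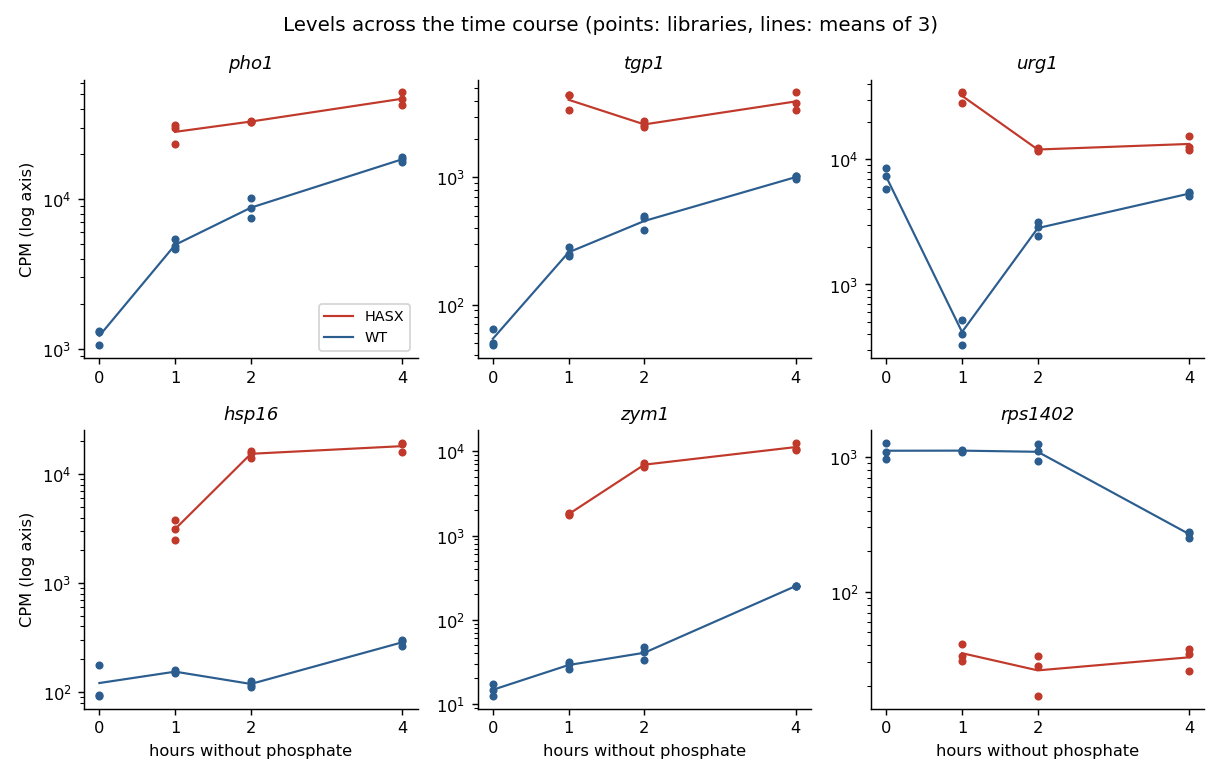
Levels of pho1, tgp1, urg1, hsp16, zym1 and rps1402 (CPM, log axis) against hours without phosphate; points are libraries and lines join group means, for HASX at 1, 2 and 4 h and the wild type at 0, 1, 2 and 4 h. The pho1 lines of the 2 strains come closer together, urg1 falls after 1 h in HASX, hsp16 climbs between 1 h and 2 h in HASX, and rps1402 is lower in HASX at each shared time.

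The genes that set HASX apart at 2 h were also compared with those that the wild type itself changed by 4 h without phosphate, a comparison of other libraries. Between 4 h and 0 h, 509 genes were higher (8.16%) and 566 lower (9.08%) in the wild type. Of those 509, 360 (70.73%) were also higher in HASX at 2 h, against 25.6% of all genes tested. These are 22.54% of the HASX list, and 45 genes of the HASX list were called in the opposite direction. Of the 566 lower genes 275 (48.59%) were also lower in HASX at 2 h, against 23.8% of all genes tested. These are 18.53% of that HASX list, with 27 in the opposite direction. In the wild type at 4 h against 0 h, 142 of 142 cytosolic ribosomal protein genes were lower (median -1.49; 25% of all genes tested were lower at the adjusted p alone), and 23 of 31 autophagy genes were higher (median 0.73; 26.5% of all genes were). The share of counts from ribosomal protein genes was 2.33% ± 0.144 in HASX at 2 h, against 6.98% ± 0.361 in the wild type at 4 h (SD, n = 3 each). Some genes went opposite ways in the 2 comparisons, such as mfm2 (-6.49 in HASX against the wild type at 2 h, 1.48 in the wild type at 4 h against 0 h) and ade7 (-1.87 and 1.01).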

How the data were processed

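PolyA RNA was sequenced with a stranded TruSeq mRNA kit, paired-end, per the labels' protocols. The submitters' processing notes list HISAT2 2.1.0, HTSeq 0.10.0, SAMtools and DESeq2 and the build ASM294v2, without roles or settings. The authors deposited integer counts per gene and library, HASX and the wild type in separate tables, which were joined here by gene identifier. They also deposited log2 fold changes against the wild type at 0 h. Differences of those deposited log2 values at 2 h correlated at r = 0.99999 across 5117 genes with the values computed here and had no other use.

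Names, gene types and neighbours came from an annotation of build ASM294v3, which matched all but 140 of 6988 identifiers. Counts of all 21 libraries (3 in each of 7 groups) were fitted with the quasi-likelihood test of edgeR 4.0.16 in R 4.3.3, with 1 mean per group and TMM scaling, after filterByExpr removed 754 genes. The fit had 14 residual degrees of freedom, and its P-values were adjusted by Benjamini-Hochberg over all 6234 genes. It was also run on simulated counts in which few genes changed, as many up as down. That run could not test the scaling where as many genes differ as here. Genes were called at an adjusted p under 0.05 and at least 2-fold, list members and named genes at the adjusted p alone. Log2 fold changes are HASX over the wild type at the same time, and "rose" and "fell" are used of HASX in that sense. The SE of a log2 value, also written after ± there, is its absolute size divided by the square root of the F value of its test. After a CPM or a share of counts, ± gives the SD. CPM are per TMM-scaled library. Scaling assumes that most genes do not differ, and about every second gene did, so the zero point of a fold change depends on it.

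Named genes are the engineered genes and ura4, the 3 phosphate acquisition genes, and those with the largest changes: 15 protein-coding genes and 5 non-coding RNAs in each direction (at least 10 CPM in the higher group, replicates that did not overlap), up to 4 genes per list, and, for the shift of the genotype difference between 1 h and 2 h, 5 protein-coding genes in each direction. Other list members named as examples were chosen after their values were seen. Members and lists were chosen with earlier results of these data known, so they are no independent support for a direction. The floor for a gene at 0 was 3 counts per library and covers counting error only.

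Alternatives were DESeq2 1.42.0 size factors and its Wald test, TMM on protein-coding genes, no filter, only the 6 libraries at 2 h, a replicate block, the adjusted p alone, and 1 library left out (each of those 6, and HASX 4 h replicate 3). TMM without ribosomal protein genes was added after the data were seen.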

Additional observations from a re-analysis of the deposited data

Results flagged for a closer look

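The genotype difference itself differed between times, by an interaction test in the same edgeR fit. Between 1 h and 2 h it shifted upward for 305 genes and downward for 260, and between 2 h and 4 h upward for 422 and downward for 345. Without HASX 4 h replicate 3 the counts between 2 h and 4 h were 324 upward and 475 downward. Single genes with shifts between 1 h and 2 h are given as the log2 fold change at 2 h minus that at 1 h. Upward shifts were 3.11 for SPAC869.09, 2.83 for SPAC4F10.17, 2.67 for hsp16, 2.49 for SPBC530.07c and 2.43 for hry1. Downward shifts were -4.19 for urg1, -4.11 for SPAPB1A11.02, -3.82 for urg2, -3.27 for uck2 and -3.27 for urg3. The genes urg1, urg2 and urg3 have neighbouring identifiers, and 4 of these 5 downward genes were still called higher in HASX at 2 h.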

How the results depend on the processing

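The 192 named genes kept their direction under the 14 other settings. In 2661 values they also stayed on their side of the threshold, in 16 the call was lost (asp1, ecl1, sxa1 and str1), and in 1 it was gained (urg3, 0.32, edgeR adjusted p = 0.03, with scaling on protein-coding genes). Counting at the adjusted p alone gave 2452 lower genes at 2 h, 2267 higher and 2358 lower at 1 h, 2389 and 2323 at 4 h, and 1649 and 1561 in the wild type at 4 h against 0 h. For the shift of the genotype difference it gave 719 upward and 1108 downward between 1 h and 2 h, and 1118 and 818 between 2 h and 4 h. Leaving out 1 replicate gave 177 to 580 upward and 193 to 337 downward shifts between 1 h and 2 h; the cause was not tested. At 2 h itself it gave 1499 to 1687 higher and 1411 to 1516 lower genes. DESeq2's Wald test gave 1553 higher and 1443 lower, and scaling on protein-coding genes 1784 and 1255. That scaling moved the median of all genes to 0.16 and the ribosomal protein median to -3.04. Of 1174 counts of list members, 29 moved by over 1.5 times.

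The replicate numbers showed no sign of pairing: deviations of same-numbered HASX and wild-type libraries correlated at 0.012, 0.018 and 0.109. Those of differently numbered libraries correlated between -0.122 and 0.113. These values cannot show whether the libraries were handled in pairs. With the replicate block 1606 genes were higher and 1477 lower.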
